A study of Mus musculus with 6 samples.

Results

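Cholesterol synthesis was followed through 7 of its enzyme genes, Hmgcs1, Idi1, Fdps, Sqle, Lss, Cyp51 and Dhcr7, which were taken by symbol from a table of 14366 mouse genes. All 7 had values, and all 7 passed the filter on low values that left 12300 genes for testing. The tissue was mesonephros, which holds the Wolffian duct from which the epididymis forms, taken from male embryos at embryonic day 16.5 with the region of the mesonephric tubules included. RNA-seq gave 3 control samples with the genotype Osr2Cre+;Gata2-flox/+ and 3 Gata2cKO samples with the genotype Osr2Cre+;Gata2-flox/flox. Both groups therefore carried the Cre recombinase driven from Osr2 and at least 1 floxed Gata2 allele, and recombination can reach only cells in which Osr2 is or was active. The labels do not say whether a sample held 1 embryo or several, or whether samples came from separate litters. The p-values therefore reflect sample-to-sample spread, which may be technical. The comparison asks how loss of Gata2 from the mesenchyme changed the tissue around the Wolffian duct.

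Cholesterol is built from acetyl-CoA through mevalonate and the isoprenoid units to squalene, which is closed into lanosterol and trimmed to cholesterol. When sterols run low in the endoplasmic reticulum, the factor SREBP-2 is released by proteolysis and raises transcription of most of these enzymes together, usually with NF-Y bound at CCAAT boxes and Sp1 at GC boxes nearby. Growing embryonic tissue needs sterol for membranes, and hedgehog signalling also depends on it.

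To show which of these elements stand near the members, the 250 bases before the start of 4 members are shown, 5′ to 3′, from RefSeq on GRCm38.p6. Capitals mark the sterol regulatory core TCACNCCAC and the CCAAT box, each on either strand (GTGGNGTGA and ATTGG when reversed).
Hmgcs1 (chr13:119690101-119690350, plus strand): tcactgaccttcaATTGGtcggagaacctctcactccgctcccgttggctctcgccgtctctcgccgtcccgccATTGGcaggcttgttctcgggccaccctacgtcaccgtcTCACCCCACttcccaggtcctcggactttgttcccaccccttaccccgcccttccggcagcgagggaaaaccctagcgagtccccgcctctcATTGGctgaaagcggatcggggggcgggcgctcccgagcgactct
Idi1 (chr13:8885356-8885605, plus strand): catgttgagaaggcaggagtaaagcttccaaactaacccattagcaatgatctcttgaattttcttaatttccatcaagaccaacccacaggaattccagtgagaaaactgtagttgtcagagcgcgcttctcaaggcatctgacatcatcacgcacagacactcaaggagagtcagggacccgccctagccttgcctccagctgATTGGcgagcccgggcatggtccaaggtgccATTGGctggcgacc
Lss (chr10:76531355-76531604, plus strand): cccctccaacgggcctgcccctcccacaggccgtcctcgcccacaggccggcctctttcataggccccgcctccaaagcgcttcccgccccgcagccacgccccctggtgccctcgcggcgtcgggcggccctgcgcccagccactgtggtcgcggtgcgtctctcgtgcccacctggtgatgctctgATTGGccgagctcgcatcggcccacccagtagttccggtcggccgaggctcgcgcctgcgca
Cyp51 (chr5:4104698-4104947, minus strand): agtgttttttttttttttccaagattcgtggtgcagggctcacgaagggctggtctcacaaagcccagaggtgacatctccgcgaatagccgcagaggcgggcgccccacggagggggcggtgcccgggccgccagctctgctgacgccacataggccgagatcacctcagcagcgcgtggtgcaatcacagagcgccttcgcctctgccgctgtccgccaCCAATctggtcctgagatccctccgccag
Of the 7 members 5 matched the promoter table by symbol, and Fdps and Sqle did not. CCAAT was found before at least 1 start of all 5, against 37.5% of the 27025 genes in the table. The GC box GGGCGG, searched on both strands, was also before all 5, against 35.4% of genes. The sterol core TCACNCCAC was found in Hmgcs1, from 137 to 129 bases before the start, and in 1.22% of all genes. The E-box CACGTG was before 1 of the 3 annotated starts of Dhcr7 and of 6.86% of genes. The starts used here are those of RefSeq. In the annotation GENCODE M21, Idi1 starts at 8885501, Lss at 76531588 and Cyp51, on the minus strand, at 4104746, inside the windows shown. Both marked boxes of Idi1 and the marked box of Cyp51 lie within the gene in that annotation. These are matches of letters in a short window and do not show binding.

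The libraries were given as TPM (transcript abundance per unit of gene length, set to a fixed library total), with sums between 997351 and 998844 per library and an unknown read depth. Gata2 was at 384, 464 and 546 TPM in control replicates 1, 2 and 3 and at 431, 530 and 416 TPM in Gata2cKO replicates 1, 2 and 3. The groups overlapped, and the value covers the whole gene rather than its floxed part, so it cannot serve as a check of the labels. Osr2 and Tcf21, which mark urogenital mesenchyme, and Krt18 and Epcam, which mark duct epithelium, were all present. In that order they were at 261 ± 54.1, 766 ± 63.2, 321 ± 20.1 and 74.1 ± 5.20 TPM in controls (SD, n = 3). In Gata2cKO they were at 127 ± 9.35, 449 ± 15.2, 349 ± 11.04 and 102 ± 4.40 TPM (SD, n = 3). Osr2 and Tcf21 were lower in Gata2cKO, while 7 of the 10 mesenchyme markers listed had a positive log2 fold change. Control replicate 1 stood apart from the other libraries: mitochondrially encoded transcripts took 21.9% of its TPM against 13.2% to 16.3% elsewhere, and its erythroid markers summed to 18290 TPM against 6874 to 13836 TPM elsewhere. Member values without it are given where it moves them.

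None of the 7 genes passed the threshold, an adjusted p under 0.05 in limma's moderated test of log2(TPM + 1), where 7.47% of all tested genes did (5.73% higher and 1.74% lower in Gata2cKO). At an unadjusted p under 0.05 there were 4 members, Idi1, Cyp51, Fdps and Hmgcs1, against 27.4% of tested genes. The authors' deposited table also calls 0 of the 7 at an adjusted p under 0.05, against 13.3% of its genes. All of the member differences were small, from a fitted log2 fold change of -0.37 for Fdps to 0.35 for Idi1, with 5 positive and 2 negative. The median over the 7 was 0.20, and over all tested genes 0.05. In bulk tissue, fewer cells of a type and less RNA per cell cannot be told apart.

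**Figure D1:**
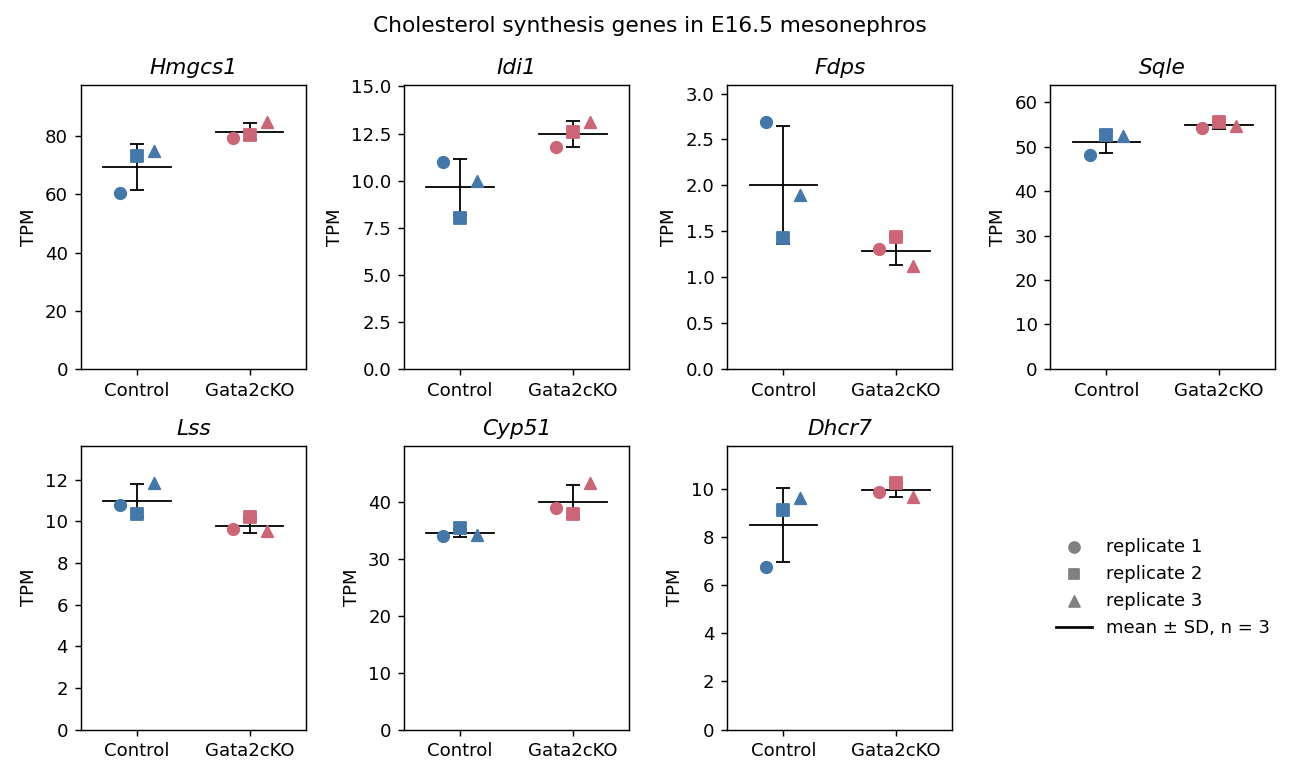
TPM of the 7 members in each library, with controls in blue and Gata2cKO in red; symbols give the replicate number and black bars the mean ± SD (n = 3). Hmgcs1, Idi1, Sqle, Cyp51 and Dhcr7 lie higher in all 3 Gata2cKO libraries than in any control, Lss lies lower, and the Fdps groups overlap.

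The first member in the pathway is Hmgcs1, which makes HMG-CoA, the precursor of mevalonate (gene on the plus strand, chromosome 13, 119690379 to 119708260 in GRCm38, GENCODE M21). It was at 60.4, 73.3 and 74.9 TPM in control replicates 1, 2 and 3 and at 79.3, 80.6 and 84.9 TPM in Gata2cKO replicates 1, 2 and 3. Every Gata2cKO library was above every control, with control replicate 1 well below the rest. The means were 69.5 ± 7.92 and 81.6 ± 2.92 TPM (SD, n = 3 each), and the log2 fold change was 0.23 (SE 0.10, 95% interval 0.0032 to 0.46, limma adjusted p = 0.178). Without control replicate 1 it was 0.14 (adjusted p = 0.234), which is less by over 1.5 times. An antisense gene, Gm48342, covers 12.1% of the exonic bases of Hmgcs1 in that annotation, and the sources used here do not give whether the counting used strand.

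Idi1 isomerizes the basic isoprenoid unit into the form from which chains are started (plus strand, chromosome 13, 8885501 to 8892451). Its values were 10.98, 8.02 and 9.97 TPM in controls and 11.8, 12.6 and 13.1 TPM in Gata2cKO, in replicate order. The groups did not overlap, and the gap between the highest control and the lowest Gata2cKO library was smaller than the spread among controls. Means were 9.66 ± 1.505 and 12.5 ± 0.678 TPM, the highest fold among the 7 at 1.29, with a log2 fold change of 0.35 (SE 0.12, 95% interval 0.07 to 0.62, limma adjusted p = 0.110). Idi1 was the member that changed its call when a library was left out: without control replicate 1 the log2 fold change was 0.44 and the adjusted p 0.0419. In the other 5 removals the adjusted p lay between 0.174 and 0.269, and without control replicate 2, the lowest library for this gene, the log2 fold change was 0.23. Gm48574, on the opposite strand, covers 9.22% of the exonic bases of Idi1.

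Fdps joins isoprenoid units into farnesyl diphosphate, the branch point towards sterols, ubiquinone and prenylated proteins (minus strand, chromosome 3, 89093588 to 89101959). It was by far the lowest of the 7, at 2.69, 1.43 and 1.90 TPM in controls and 1.31, 1.44 and 1.13 TPM in Gata2cKO. The groups overlapped, because control replicate 2 lay just below Gata2cKO replicate 2, and control replicate 1 was the highest library. Means were 2.01 ± 0.639 and 1.29 ± 0.156 TPM, with a log2 fold change of -0.37 (SE 0.16, 95% interval -0.73 to -0.012, limma adjusted p = 0.172). It was -0.21 without control replicate 1 and -0.56 with a pseudocount of 0.1. A log2 fold change of -0.69 stands for Fdps in the authors' deposited table (adjusted p = 0.342). Its level is uncertain: a second protein-coding gene on the same strand, Gm43738 (chromosome 3, 89081939 to 89101099), shares 1124 of the 4208 exonic bases of Fdps and 85.9% of its 1308 coding bases. Reads from the shared stretch fit both genes, and the treatment of such reads in the authors' counting is not stated in the sources used. Gm43738 has no value among the authors' genes, and the part of this overlap in the low value was not tested.

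Sqle, which puts oxygen on squalene and is a rate-limiting step of the later pathway (plus strand, chromosome 15, 59315077 to 59331192), was the second most abundant member. It was at 48.2, 52.6 and 52.3 TPM in controls and at 54.1, 55.6 and 54.8 TPM in Gata2cKO. The groups did not overlap, although only by a small step. Means were 51.0 ± 2.50 and 54.8 ± 0.726 TPM, with a log2 fold change of 0.10 (SE 0.07, 95% interval -0.07 to 0.27, limma adjusted p = 0.410). The value was 0.06 without control replicate 1, and 0.04 both with median-of-ratios scaling and with mitochondrial genes left out of the total.

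Lss folds oxidized squalene into lanosterol, the first sterol (plus strand, chromosome 10, 76531588 to 76557138). Controls were at 10.8, 10.3 and 11.9 TPM and Gata2cKO libraries at 9.64, 10.2 and 9.53 TPM. Here all 3 Gata2cKO libraries were below all 3 controls, the only member for which that was so in the values as deposited. Means were 10.99 ± 0.783 and 9.79 ± 0.351 TPM, with a log2 fold change of -0.15 (SE 0.08, 95% interval -0.35 to 0.05, limma adjusted p = 0.294). Without control replicate 3, the highest library, it was -0.10.

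Cyp51, the cytochrome P450 that removes a methyl group from lanosterol (minus strand, chromosome 5, 4081145 to 4104746), had the tightest controls, at 34.1, 35.5 and 34.3 TPM. Gata2cKO libraries were at 39.1, 37.9 and 43.5 TPM, all higher, with replicate 3 the highest. Means were 34.6 ± 0.717 and 40.1 ± 2.92 TPM, with a log2 fold change of 0.20 (SE 0.08, 95% interval 0.02 to 0.39, limma adjusted p = 0.154). Over the 6 removals of a library the log2 fold change ran from 0.15 to 0.24 and the adjusted p from 0.157 to 0.389.

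Dhcr7 reduces the last ring double bond to give cholesterol (plus strand, chromosome 7, 143823145 to 143848410). Control values were 6.73, 9.12 and 9.62 TPM and Gata2cKO values 9.87, 10.2 and 9.66 TPM. The groups touched, with control replicate 3 and Gata2cKO replicate 3 nearly equal, and control replicate 1 was low. Means were 8.49 ± 1.55 and 9.93 ± 0.294 TPM, with a log2 fold change of 0.22 (SE 0.13, 95% interval -0.08 to 0.51, limma adjusted p = 0.314). Without control replicate 1 it was 0.08 (adjusted p = 0.568).

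In 6 of the 7 members, then, the 3 Gata2cKO values lay on 1 side of the 3 control values, 5 higher and 1 lower, where this held for 33.9% of tested genes (23.4% higher and 10.5% lower). That count depended on the scaling. With median-of-ratios scaling it was 3 members, Idi1 higher and Fdps and Lss lower, against 34.1% of genes. With mitochondrial genes left out of the total it was 4, Hmgcs1 and Sqle higher and Fdps and Lss lower, against 31.9%. No member changed sign under either scaling, and the direction of Lss and that of Idi1 differed from each other in all of them. In the values as deposited, control replicate 1 was the lowest of the 6 libraries for 4 members (Hmgcs1, Sqle, Cyp51 and Dhcr7) and the highest control for the 2 members Idi1 and Fdps.

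**Figure D2:**
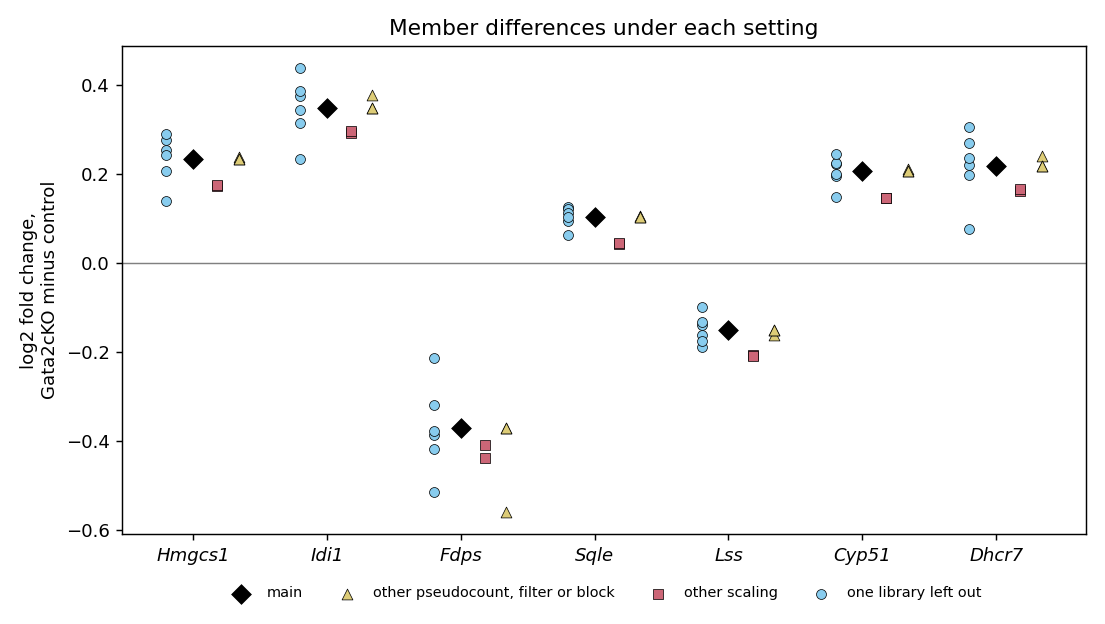
Log2 fold change of each member (Gata2cKO minus control, on the log2(TPM + pseudocount) scale) in the main model, with each library left out, with other scalings, and with another pseudocount, no filter or a replicate block. The other scalings lower all 7 values, and Dhcr7 falls to 0.08 and Hmgcs1 to 0.14 when control replicate 1 is left out.

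A ratio of 2 genes within a library is free of that library's scaling. Lss was used as the denominator after its values had been seen. Hmgcs1, Idi1, Sqle, Cyp51 and Dhcr7 were already higher, and Lss lower, in all 3 Gata2cKO libraries than in any control. Separation of their ratios over Lss was therefore fixed in advance and is no further support. Hmgcs1, Idi1, Sqle, Cyp51 and Dhcr7 were each higher relative to Lss in all 3 Gata2cKO libraries than in any control, as were 42.1% of the other tested genes, while 3.35% were lower. Idi1 over Lss was 1.02, 0.776 and 0.842 in controls and 1.22, 1.23 and 1.38 in Gata2cKO. In Gata2cKO, therefore, there was more Idi1 than Lss transcript per length in every library, and in controls in 1 of 3. Dhcr7 over Lss was 0.624, 0.883 and 0.812 in controls and 1.02, 1.01 and 1.01 in Gata2cKO. The mean of Hmgcs1 over Lss was 6.34 in controls and 8.35 in Gata2cKO, that of Cyp51 over Lss 3.17 and 4.11, and that of Sqle over Lss 4.66 and 5.61, as descriptions with no test. Fdps over Lss overlapped, with means of 0.183 and 0.132. With Fdps, the lowest member and of uncertain level, as the denominator the same 5 genes were also higher in all 3 Gata2cKO libraries. The share of all tested genes that were higher over Fdps is not given here, so nothing particular to the 5 genes is read from that ratio. Set against one another, 9 of the 10 pairs among the 5 overlapped between groups, and Hmgcs1 over Sqle did not (1.36 and 1.49 in the means).

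**Figure D3:**
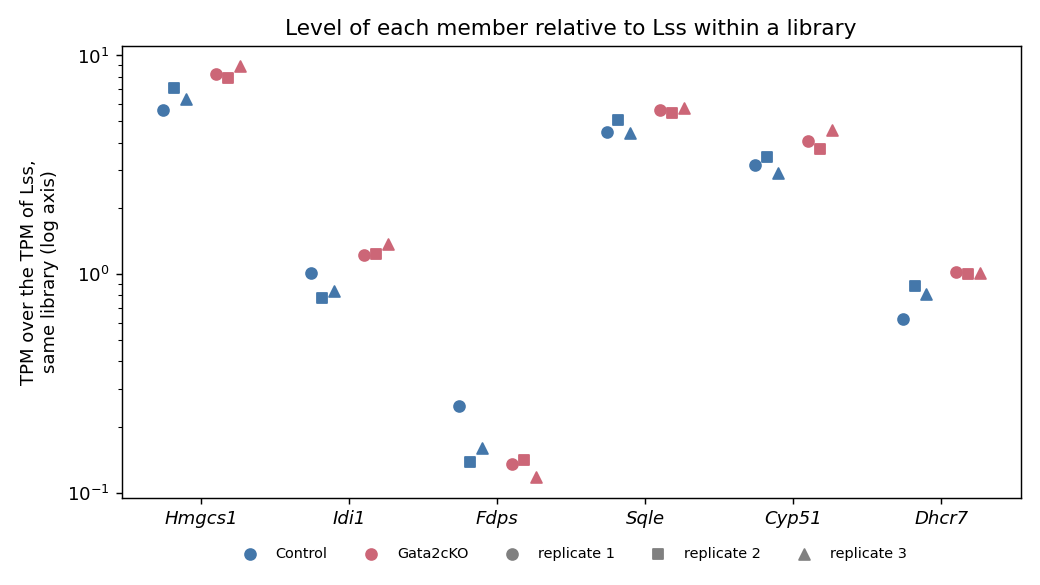
TPM of 6 members divided by the TPM of Lss in the same library, on a log axis, with controls in blue, Gata2cKO in red and symbols for replicates. The red points stand above the blue ones for Hmgcs1, Idi1, Sqle, Cyp51 and Dhcr7, and overlap them for Fdps. The separation follows from the TPM values, in which those genes were higher and Lss lower in every Gata2cKO library.

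The order of abundance, in TPM and so per length, was nearly the same in both groups. Hmgcs1 was highest, then Sqle, then Cyp51, and no library of 1 of these 3 overlapped the next within a group. Lss, Idi1 and Dhcr7 followed in that order in controls, with means of 10.99, 9.66 and 8.49 TPM. The range of Idi1 overlapped that of Lss and that of Dhcr7, while Dhcr7 lay below Lss in every control library. In Gata2cKO the order was Idi1, Dhcr7 and Lss, at 12.5, 9.93 and 9.79 TPM, where Idi1 stood clear and the ranges of the other two overlapped. Fdps came last in both. Among tested genes ranked by mean TPM, Hmgcs1 stood at percentile 85.9, Sqle at 80.5, Cyp51 at 73.9, Idi1 at 44.4, Lss at 42.7, Dhcr7 at 39.7 and Fdps at 6.13. The 7 values summed to 174, 190.3 and 195 TPM in controls and to 205, 209 and 217 TPM in Gata2cKO, of which Hmgcs1 and Sqle made up the larger part.

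Among 14 other enzymes of the same pathway 4 rose and 0 fell at an adjusted p under 0.05, where 5.73% of all tested genes rose and 1.74% fell. At an unadjusted p under 0.05 there were 7, not all of them higher in Gata2cKO, against 27.4% of tested genes. The median log2 fold change of these 14 was 0.22, with 12 positive, where 7321 of the 12300 tested genes were positive and their median was 0.05. Among those that rose were Lbr, Ebp and Hsd17b7, which act on sterols after lanosterol. Lbr, a sterol reductase that is also the receptor for lamin B in the inner nuclear membrane, was at 14.6, 17.2 and 17.1 TPM in controls and at 23.2, 23.9 and 23.2 TPM in Gata2cKO. The groups stood clear of each other (1.44-fold; log2 fold change 0.50, SE 0.09, limma adjusted p = 0.0215). Tm7sf2, another sterol reductase of the 14, went the other way, at 32.5 ± 1.42 TPM in controls and 26.9 ± 4.19 TPM in Gata2cKO. Its groups overlapped (log2 fold change -0.28, SE 0.11, unadjusted p = 0.0430 and adjusted p = 0.169 by limma). Ebp, a sterol isomerase, was at 16.1 ± 0.494 TPM in controls and 20.2 ± 0.137 TPM in Gata2cKO (adjusted p = 0.0440 by limma). Hsd17b7, a ketosteroid reductase of the demethylation steps, was at 5.67 ± 0.281 and 7.45 ± 0.158 TPM (adjusted p = 0.0448 by limma). Lbr kept its call under both other scalings, and the authors' deposited table also calls it, as 1 of 2 of the 14. Ebp and Hsd17b7 lost theirs with median-of-ratios scaling (adjusted p = 0.0764 and 0.0753) and without mitochondrial genes (0.106 and 0.0946). Without control replicate 1, 3 of the 4 remained past the threshold and Hsd17b7 did not (adjusted p = 0.0522), and with any other single library left out 0 of the 14 passed.

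The pathway was also split at lanosterol, after the values were seen. The 11 genes tested up to lanosterol had a median log2 fold change of 0.03 and 0 called. The 10 after it had a median of 0.26 and 4 called, all higher, with 9 positive and 1 negative (-0.28). Over all tested genes the median was 0.05, and 5.73% rose and 1.74% fell. Those 4 calls became 2 under either other scaling and 0 to 3 when 1 library was left out. Of the 7 members, Hmgcs1, Idi1, Fdps, Sqle and Lss fall in the first stretch and Cyp51 and Dhcr7 in the second. The difference between the stretches was not tested.

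**Figure D4:**
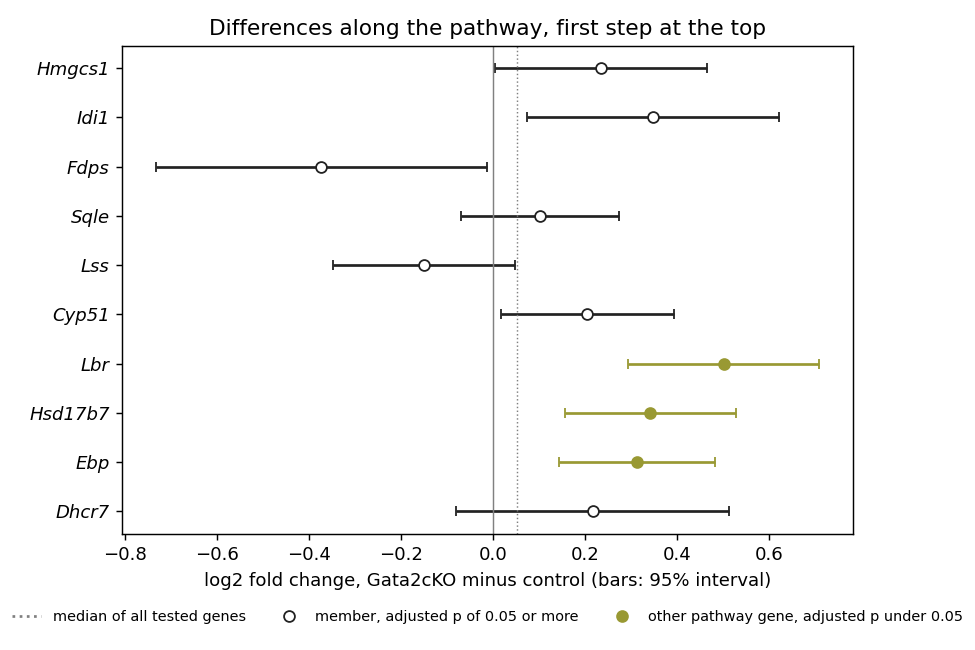
Log2 fold change with its 95% interval for the 7 members (open black circles) and 3 other pathway genes past the threshold (filled olive circles), ordered along the pathway; the dotted line is the median of all tested genes, 0.05. The members run from -0.37 for Fdps to 0.35 for Idi1, and the 3 others from 0.31 for Ebp to 0.50 for Lbr.

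The genes that control the pathway gave no call. None of 7 genes of the SREBP system passed in limma, with 0 at an unadjusted p under 0.05, 0 called in the authors' deposited table and a median log2 fold change of 0.15. Srebf2, which encodes SREBP-2, was at 32.4 ± 1.19 TPM in controls and 36.3 ± 3.31 TPM in Gata2cKO, and Mbtps1, a protease that releases it, at 51.3 ± 3.34 and 57.1 ± 3.68 TPM (SD, n = 3 each). Insig1, which holds the factor in the endoplasmic reticulum and is itself a target of it, was the most abundant of the 7 at 66.8 ± 5.59 and 74.1 ± 5.89 TPM. For all 3 of these genes the groups overlapped. None of 8 tested genes that use isoprenoids for other products passed either in limma (0 at an unadjusted p under 0.05, and 0 in the authors' deposited table), with a median of 0.05. Fnta, a subunit of the protein prenyltransferases, was at 45.0 ± 2.36 and 47.9 ± 3.94 TPM, Dhdds, which makes dolichol chains, at 14.8 ± 2.19 and 16.8 ± 1.98 TPM, and Pdss1, which makes the ubiquinone tail, at 1.90 ± 0.237 and 1.65 ± 0.194 TPM.

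Single genes of sterol handling and of fatty acid synthesis did rise at an adjusted p under 0.05 in limma. Over all tested genes 5.73% rose and 1.74% fell, and the median log2 fold change was 0.05. Of 12 tested genes of sterol uptake and transport 1 rose and 0 fell, with a median of 0.13. It was Lipa, the lysosomal acid lipase that frees cholesterol from lipoprotein esters, at 9.92, 9.90 and 9.89 TPM in controls and 13.6, 13.8 and 14.1 TPM in Gata2cKO (log2 fold change 0.44, SE 0.07, limma adjusted p = 0.0178). Npc2, a lysosomal sterol carrier, was the most abundant, with 79.4 ± 18.1 TPM in controls and 101 ± 1.46 TPM in Gata2cKO, and missed the threshold (limma adjusted p = 0.196). Of 7 tested genes of efflux and esterification 1 rose and 0 fell, with a median of 0.13. This was the sterol exporter gene Abca1, from 4.07 ± 0.334 to 5.79 ± 0.275 TPM (limma adjusted p = 0.0338; 0.0535 with median-of-ratios scaling and 0.0824 without mitochondrial genes). Of 12 genes of fatty acid synthesis, a process under the related factor SREBP-1, 2 rose and 0 fell, with a median of 0.10. Scd1, a desaturase, was at 10.4, 11.6 and 10.9 TPM in controls and 18.5, 18.6 and 15.8 TPM in Gata2cKO (1.61-fold; log2 fold change 0.64, SE 0.09, limma adjusted p = 0.0132). Fads2, another desaturase, rose from 18.04 ± 0.987 to 23.7 ± 1.12 TPM (adjusted p = 0.0363; 0.0665 without mitochondrial genes), and the most abundant gene of the list, Scd2, was at 451 ± 17.9 and 559.8 ± 21.03 TPM (adjusted p = 0.0535). Lipa, Abca1 and Fads2 each lost their call in 5 of the 6 removals of a library (highest adjusted p 0.0820, 0.122 and 0.125, without Gata2cKO replicate 1 for the first 2 and without control replicate 2 for Fads2), and Scd1 in 2, without Gata2cKO replicate 1 (0.0679) and without Gata2cKO replicate 2 (0.0505).

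Markers of other cells differed between the groups in some lists and not in others. The counts of markers that rose or fell stand beside 5.73% of all tested genes that rose and 1.74% that fell. Mesenchyme markers fell in 3 of 10, Tcf21 and Osr2 among them. They rose in 1, Col3a1 (log2 fold change 0.39, limma adjusted p = 0.0414), and 7 of the 10 had a positive log2 fold change. Their sums were 7582 to 9432 TPM in controls and 8325 to 10444 TPM in Gata2cKO. Duct epithelial markers rose in 3 of 11 tested and fell in 0, and their sum was 1018 to 1102 TPM in controls and 1314 to 1329 TPM in Gata2cKO. Endothelial markers rose in 2 of 7, with sums of 242 to 295 and 329 to 361 TPM, and macrophage markers, which come from cells that take up much lipoprotein sterol, in 2 of 8, with sums of 359 to 446 and 472 to 528 TPM. Of 8 nephron markers 2 were tested, Podxl and Lrp2, and both rose, with sums of 51.0 to 58.3 and 87.7 to 96.7 TPM. The 10 steroidogenic markers written, for cells that use cholesterol for hormones, had 5 with values, and only Star was tested. Star was at 5.29 ± 0.577 and 5.76 ± 0.326 TPM with overlapping groups. Below the filter, Cyp11a1, the enzyme that opens steroid synthesis, was at 0.408 ± 0.208 and 0.973 ± 0.296 TPM, and Lhcgr, the receptor for luteinizing hormone, at 0.0347 ± 0.0304 and 0.225 ± 0.0503 TPM, both higher in all 3 Gata2cKO libraries. These 2 were named after their values were seen, and the authors' deposited table calls Lhcgr (adjusted p = 0.0117) and not Cyp11a1 (adjusted p = 0.104). The other markers below the filter did not follow them. Nr5a1 was lower in the mean, at 0.709 ± 0.401 TPM in controls and 0.521 ± 0.424 TPM in Gata2cKO. Mc2r was at 0.643 ± 0.124 and 0.696 ± 0.416 TPM, and the groups overlapped for both. The summed level of the 5 steroidogenic markers with values was 6.82 to 7.44 TPM in controls and 7.45 to 8.81 TPM in Gata2cKO. Proliferation markers had 0 of 8 past the threshold in limma (0 at an unadjusted p under 0.05, 1 in the authors' deposited table), with sums of 1285 to 1294 and 1298 to 1372 TPM. None of 5 tested Sertoli, 3 Schwann and neural, 2 adipocyte and 1 germ cell markers passed in limma or in the authors' deposited table. At an unadjusted p under 0.05 in limma there were 1, 2, 1 and 1 of them. Sertoli markers summed to 109 to 119 TPM in controls and 99.9 to 108 TPM in Gata2cKO. Erythroid markers rose in 1 of 8 tested, and their sums overlapped. In no list were any defining markers with values at 0 in all libraries. The part of these cells in the sterol gene values was not tested.

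The mean profile of the 7 members over the 6 libraries, each gene centred on its own mean of log2(TPM + 1), was shallow, running from -0.09 in control replicate 2 to 0.06 in Gata2cKO replicate 2. Among the 5 genes closest to it by root mean square difference over the 6 libraries were Ephb6, an Eph receptor (difference 0.014), Nxt1, an RNA export factor (0.014), Snx12, a sorting nexin (0.017), and Msto1, a mitochondrial protein gene (0.024), where the median over tested genes was 0.15. None of these 4 passed in limma (0 at an unadjusted p under 0.05, and 0 called in the authors' deposited table). Their log2 fold changes were 0.10, 0.06, 0.07 and 0.11. Opposite values of single members partly cancel in the mean profile. In control replicate 1 the centred value was 0.50 for Fdps, -0.39 for Dhcr7 and -0.31 for Hmgcs1, and the mean was -0.06. Closeness to the mean is therefore not closeness to each member.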

How the data were processed

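RNA-seq was made from mesonephros of 3 control and 3 Gata2cKO samples. Per the labels' protocols, RNA was isolated with the PicoPure kit and polyadenylated RNA was captured and fragmented. Per the submitters' processing notes, which assign no roles, the tools were STAR 2.7.11a, DESeq2 and DESeq and the build GRCm38. The deposited values per gene were taken as TPM made by the authors, from their sums and from non-whole values. The authors' deposited table also holds a log2 fold change, a p-value and an adjusted p-value per gene. TPM keeps no depth, so no counting interval is given and the spread between 3 samples sets the precision.

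A gene was kept where at least 3 of the 6 libraries reached a TPM of 1 (12300 of 14366). A model with group as its term was fitted over all of them to log2(TPM + 1). It used limma 3.58.1 (R 4.3.3), trended moderated variances, two-sided tests and Benjamini-Hochberg adjustment. Log2 fold changes are Gata2cKO minus control, which understates low genes, and folds are ratios of mean TPM. The fit was tested on simulated data. The 7 members, the gene lists, the tests and the rule for named genes were chosen with earlier results of these data known. That rule takes the members, up to 4 genes past the threshold per sterol list or the 2 with the smallest p, the most abundant gene of each list, up to 2 marker genes per cell type list, and the 5 genes closest in profile to the members. A few genes that this rule takes are not reported here but remain in every total. Alternatives were a pseudocount of 0.1, no filter, 2 other scalings, a replicate block and removal of each library, and the counts of groups that do not overlap under other scalings were added after seeing the data.

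Gene positions and exon overlaps are from GENCODE M21 (GRCm38), matched by identifier without version. The authors' counting may have used an earlier release. Gm48342, Gm48574 and Gm43738 have no values among the 14366 genes, so whether they were counted as genes is not known, and the overlaps may not apply. Promoters are from RefSeq on GRCm38.p6.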

Additional observations from a re-analysis of the deposited data

How the results depend on the processing

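The count of members past the threshold was 0 in the main model and with another pseudocount, no filter, both other scalings and the replicate block, and 0 to 1 when 1 library was left out, the 1 being Idi1 without control replicate 1. No member changed sign in any of the 11 alternatives. The count of the 14 other pathway genes was 4, and it was 2 with median-of-ratios scaling, 2 without mitochondrial genes in the total and 2 with the replicate block, and 0 to 3 when 1 library was left out. The count over all tested genes was 919 (705 higher and 214 lower) and ran from 116, without Gata2cKO replicate 1, to 1539, without control replicate 1. Its split was 487 higher and 400 lower with median-of-ratios scaling and 432 and 282 without mitochondrial genes, and 774 genes passed with the replicate block. The count of members whose groups do not overlap moved from 6 to 3 with median-of-ratios scaling. The cause of these shifts was not tested. Same-numbered samples did not consistently deviate together, with correlations across genes of 0.25, -0.07 and 0.04 for numbers 1, 2 and 3. The value for number 1 was the highest of all control and Gata2cKO pairings, and pairings of unlike numbers ran from -0.28 to 0.21. The numbers were not taken as pairs. Under the replicate block Ebp, Hsd17b7, Abca1 and Fads2 lost their calls (limma adjusted p = 0.0897, 0.0886, 0.0601 and 0.0672). Each group held 3 samples and the read depth is unknown, which limits the precision of every value.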
